A study of Mus musculus with 27 samples.

Results

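Metallothioneins and zinc transport genes are described here in the mouse fibroblast line 3T3-L1, whose cells become fat cells in a hormone medium. The members are 6 genes, Mt1, Mt2, Mtf1, Slc30a1, Slc39a14 and Slc39a10, found by their gene symbol among the 19938 genes measured. Each of the 6 was read by a single probe set among those with 1 gene symbol, and none was lost to a filter. Probe sets with several symbols were not searched for the members. The cells carried the pMIG retroviral vector alone or with Flag-ISL1, a tagged transcription factor of the LIM homeodomain family. At 2 days after confluence they received medium with 10% fetal calf serum, 350 nM insulin, 0.5 mM isobutylmethylxanthine (IBMX), 250 nM dexamethasone and 400 nM biotin. IBMX raises cAMP and dexamethasone is a glucocorticoid. The groups were ISL1 cells at 0 and 48 h and vector cells at 0, 0.5, 1, 2, 4, 8 and 48 h, with 3 arrays each and 27 in all, and both constructs got the same medium. The 0 h cells were taken before the medium was changed. The sources used here do not say whether each construct was 1 clone or a pool of infected cells.

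Metallothioneins are small cysteine-rich proteins that bind zinc, copper and cadmium, and in the mouse Mt1 and Mt2 are the forms made in most tissues. Mtf1 is the zinc finger factor that senses free zinc, binds metal response elements and switches on Mt1, Mt2 and the zinc exporter Slc30a1. Zinc enters the cytosol through transporters of the Slc39 (ZIP) family and leaves it through the Slc30 (ZnT) family. Metallothionein genes are also known targets of glucocorticoids.

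On the GRCm38.p6 assembly Mt2 (chr8:94172618-94173567) and Mt1 (chr8:94178883-94180327) lie head to tail on mouse chromosome 8, with 5315 bases between them. Mtf1 lies at chr4:124802549-124849800, Slc30a1 at chr1:191906697-191913248, Slc39a10 at chr1:46807544-46925776 and Slc39a14 at chr14:70303467-70351452. Promoter windows from RefSeq were matched for 5 of the 6 members. The 250 bases before the annotated start of Mt1, Mt2 and Slc30a1 are shown because these are the genes Mtf1 is known to drive. Capitals mark the core of the metal response element on either strand, searched as TGCACNC or TGCGCNC. All 3 are written 5′ to 3′ on the gene's strand.
Mt1, chr8:94178839-94179088 (+): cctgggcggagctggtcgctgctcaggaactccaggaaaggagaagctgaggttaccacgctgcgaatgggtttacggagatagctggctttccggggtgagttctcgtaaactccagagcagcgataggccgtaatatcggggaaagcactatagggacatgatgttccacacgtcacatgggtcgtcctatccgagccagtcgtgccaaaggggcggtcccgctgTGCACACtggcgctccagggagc
Mt2, chr8:94172368-94172617 (+): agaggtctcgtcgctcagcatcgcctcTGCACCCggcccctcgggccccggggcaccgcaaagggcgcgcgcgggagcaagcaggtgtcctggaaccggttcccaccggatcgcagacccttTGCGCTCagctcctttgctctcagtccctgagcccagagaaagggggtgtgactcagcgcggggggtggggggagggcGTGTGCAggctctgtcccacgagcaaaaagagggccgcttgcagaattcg
Slc30a1, chr1:191906531-191906780 (+): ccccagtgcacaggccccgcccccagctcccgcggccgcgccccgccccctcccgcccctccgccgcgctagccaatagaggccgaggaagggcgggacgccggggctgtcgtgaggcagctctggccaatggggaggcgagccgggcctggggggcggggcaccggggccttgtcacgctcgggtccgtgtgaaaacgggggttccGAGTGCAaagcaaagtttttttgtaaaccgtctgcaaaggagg
For Mt1 and for Slc30a1 another annotated transcript model starts inside the printed window.

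The core occurred 3 times in the 250 bases of Mt2, 1 time in those of Mt1 and 1 time in those of Slc30a1. It was not found in the windows of Mtf1 or Slc39a10. With the 50 bases after the start added, the counts were 4 for Mt2, 3 for Mt1 and 2 for Slc30a1. Among all 32851 windows of the table, 21.4% held at least 1 core in 250 bases and 1.26% held at least 3. Over 300 bases 25.7% held at least 1, 7.11% at least 2, 1.97% at least 3 and 0.517% at least 4. The full glucocorticoid element, AGAACA followed by any 3 bases and TGTTCT, was in no member window and in 0.00913% of all windows of 250 bases. The full cAMP element TGACGTCA was likewise in no member window and in 1.55% of all windows. Its first letters TGACG occurred 1 time in the 250 bases of Mt1 and in 17.8% of all windows, and the TGTTCT of the glucocorticoid element occurred 1 time in those of Mtf1 and in 16.1% of all windows. Both strands were searched for each motif, and none of these matches overlapped a metal core. These are matches of letters in short windows only.

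Values are RMA log2 intensities and ran from 3.35 to 14.85 over the arrays. Fold changes and tests come from limma with Benjamini-Hochberg adjustment over all 19938 genes in each comparison, and a gene was called at an adjusted p under 0.05. Overlap between arrays is given as a description of single genes and was not counted over all genes. The labels were checked on Isl1, the introduced gene, whose log2 level was 12.62 ± 0.018 in ISL1 cells and 7.34 ± 0.157 in vector cells at 0 h (SD, n = 3 each). At 48 h the arrays labelled ISL1 had 7.65 ± 0.306, against 12.76 ± 0.036 for those labelled vector (SD, n = 3 each). The 48 h signal thus went against the labels. No array was moved, and "labelled" is written with each 48 h group. For the members, values with the 48 h labels exchanged are given where they change a call or a direction. Counts of other genes and markers at 48 h are as labelled. Fibroblast markers were high at vector 0 h, where the 9 of 9 measured had log2 means between 11.99 and 14.35. The 8 adipocyte markers measured also had signal there, with log2 means between 9.12 and 13.18 and a median of 10.96. In bulk RNA, fewer cells of a type and less RNA per cell cannot be told apart.

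Both metallothioneins rose within 0.5 h of the medium change and stayed high to 8 h. Mt1 peaked at 6.79 times and Mt2 at 5.80 times its 0 h level, both at 4 h. Slc39a14, an importer of zinc that also carries iron and manganese, started later and reached 8.01 times its 0 h level at 4 h. The size of its rise was not tested against those of Mt1 and Mt2. Mtf1 and Slc30a1 rose by at most 1.45-fold and 1.34-fold, and not before 4 h. Slc39a10, another zinc importer, did not pass the test at any time up to 8 h. All time comparisons below share the vector 0 h arrays, apart from those between successive times. The 0 h arrays, the 0.5 to 8 h arrays and the 48 h arrays carry separate runs of sample numbers. Whether they were handled together is not stated, so time and any difference between these runs cannot be told apart.

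The log2 level of Mt1 in the 3 vector arrays was 11.30, 11.24 and 11.16 at 0 h, 12.57, 12.46 and 12.65 at 0.5 h, and 13.33, 13.37 and 13.40 at 1 h. It was 13.82, 13.84 and 13.81 at 2 h, 13.99, 14.00 and 14.00 at 4 h, and 13.95, 13.89 and 13.88 at 8 h. Each of these 6 times was clear of the others, with no overlap between arrays of different times. The log2 difference from 0 h was 1.32 ± 0.061 at 0.5 h (SE, limma adjusted p = 1.45e-14), which is 2.50-fold. It reached 2.13 at 1 h, 2.59 at 2 h and 2.76 at 4 h and was still 2.67 at 8 h, with the same SE. In log2 units Mt1 had thus covered 48.0% of its largest change by 0.5 h, 77.1% by 1 h and 93.7% by 2 h.

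Mt2 had log2 levels of 11.53, 11.45 and 11.86 at 0 h, 12.92, 13.07 and 13.26 at 0.5 h, and 13.85, 13.89 and 13.89 at 1 h in vector cells. At 2 h it stood at 14.11, 14.02 and 14.06, at 4 h at 14.16, 14.14 and 14.14, and at 8 h at 14.04, 14.07 and 14.07. All arrays from 0.5 h on were above all 0 h arrays, and the 2 h and 8 h arrays overlapped. Mt2 was above its 0 h level by 1.47 ± 0.086 in log2 units at 0.5 h (SE, limma adjusted p = 2.07e-12), 2.27 at 1 h, 2.45 at 2 h, 2.54 at 4 h and 2.45 at 8 h. By 0.5 h Mt2 had covered 57.9% of its largest log2 change, and by 1 h 89.3%.

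The step between successive times became small early for both metallothioneins. Between 0.5 h and 1 h Mt1 gained 0.81 and Mt2 gained 0.80 on the log2 scale, with limma adjusted p of 6.22e-10 and 3.13e-07. From 1 h to 2 h Mt1 gained 0.46 (limma adjusted p = 2.12e-06), and the 0.19 of Mt2 was not past the test (limma adjusted p = 0.143). The step of Mt1 from 2 h to 4 h was 0.17 (limma adjusted p = 0.0334), and the call was lost without any single array of the 6, with limma adjusted p between 0.0590 and 0.0913. From 4 h to 8 h Mt1 differed by -0.09 and Mt2 by -0.09, with limma adjusted p of 0.351 and 0.526.

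Whether the gains of Mt1 and Mt2 by 4 h differed could not be decided with 3 arrays a group. The Mt2 log2 value minus the Mt1 value of the same array lay between 0.14 and 0.17 at 4 h and between 0.21 and 0.70 at 0 h. The groups did not overlap, and the log2 change of Mt2 minus that of Mt1 was -0.23. It was -0.066 without replicate 3 of vector 0 h and between -0.31 and -0.22 without any other single array. The exact permutation test gave p = 0.1 (two-sided), the smallest p that 3 arrays against 3 allow, so it could not pass. Both means at 4 h, 14.00 for Mt1 and 14.15 for Mt2, were close to the highest value on any array, 14.85, and whether the upper end of the scale compresses changes was not tested. The genes are related paralogs, and cross-hybridisation between their probes was not tested.

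Slc39a14 lagged behind the metallothioneins. Its log2 levels in vector cells were 9.73, 9.56 and 9.58 at 0 h, 9.66, 9.65 and 9.79 at 0.5 h, and 10.51, 10.55 and 10.62 at 1 h. They were 12.32, 12.30 and 12.26 at 2 h, 12.71, 12.56 and 12.60 at 4 h, and 12.04, 11.96 and 11.89 at 8 h. The 0 h and 0.5 h arrays overlapped, and every later time was clear of both. The log2 difference from 0 h was 0.08 ± 0.071 at 0.5 h (SE, limma adjusted p = 0.999), 0.93 at 1 h, 2.67 at 2 h and 3.00 ± 0.071 at 4 h (SE, limma adjusted p = 1.74e-21). By 1 h it had covered 31.1% of its largest log2 change, and by 2 h 88.9%. Its step between 1 h and 2 h, of 1.73 in log2 units, was number 25 in size among all genes tested. After 4 h it fell by 0.67 to 8 h (limma adjusted p = 6.27e-08), the only member past the test in that step, where 10.2% of all genes were lower and 13.7% higher.

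Mtf1, the zinc sensor itself, had log2 levels of 9.96, 9.94 and 9.73 at 0 h and lay between 9.53 and 10.01 at 0.5, 1 and 2 h. It stood at 10.25, 10.31 and 10.32 at 4 h and at 10.38, 10.49 and 10.38 at 8 h. The arrays of the first 4 times overlapped, and those of 4 h and 8 h were above all of them. The log2 difference from 0 h was 0.42 ± 0.086 at 4 h and 0.54 ± 0.086 at 8 h (SE, limma adjusted p = 0.000253 and 8.65e-06). At 0.5, 1 and 2 h it was 0.05, -0.12 and 0.02, with limma adjusted p of 0.999, 0.647 and 0.933.

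Slc30a1, the exporter that carries zinc out across the cell surface, had log2 levels of 9.09, 8.93 and 8.80 at 0 h. It had 8.65, 8.74 and 8.76 at 0.5 h, 8.55, 8.61 and 8.71 at 1 h and 8.69, 8.88 and 8.78 at 2 h. At 4 h it reached 9.36, 9.36 and 9.37, and at 8 h 9.32, 9.36 and 9.31. The 0.5 h and 1 h arrays were below all 0 h arrays, and those of 4 h and 8 h above all of them. The difference of -0.22 at 0.5 h was not past the test (limma adjusted p = 0.349). The log2 difference from 0 h was -0.31 ± 0.079 at 1 h (SE, limma adjusted p = 0.0108), 0.42 at 4 h (limma adjusted p = 6.88e-05) and 0.39 at 8 h (limma adjusted p = 0.000161). The call at 1 h rested on single arrays: it was lost without replicate 1 of vector 0 h (-0.24, limma adjusted p = 0.115) and without replicate 1 of vector 1 h (-0.28, limma adjusted p = 0.0618). It was also lost when the arrays were centred on their median (limma adjusted p = 0.0578) and when only the compared arrays were fitted (limma adjusted p = 0.102). Between 2 h and 4 h Slc30a1 rose by 0.58 in log2 units (limma adjusted p = 2.30e-06).

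The log2 levels of Slc39a10 in vector cells were 9.53, 9.46 and 9.30 at 0 h and lay between 9.01 and 9.49 over the arrays of 0.5, 1 and 2 h. They were 9.53, 9.62 and 9.60 at 4 h and 9.53, 9.76 and 9.61 at 8 h. The 4 h and 8 h arrays lay just above those of 0 h, and the earlier times overlapped 0 h. Against 0 h the log2 difference was -0.26 ± 0.110 at 2 h, then 0.15 at 4 h, and 0.21 at 8 h by the same fit (SE, limma adjusted p = 0.0791, 0.304 and 0.132). After quantile normalization of the deposited values it was 0.24 at 4 h and 0.27 at 8 h, both past the test (limma adjusted p = 0.0110 and 0.00483). Its rise between 2 h and 4 h, of 0.42, passed the test (limma adjusted p = 0.00444).

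**Figure D1:**
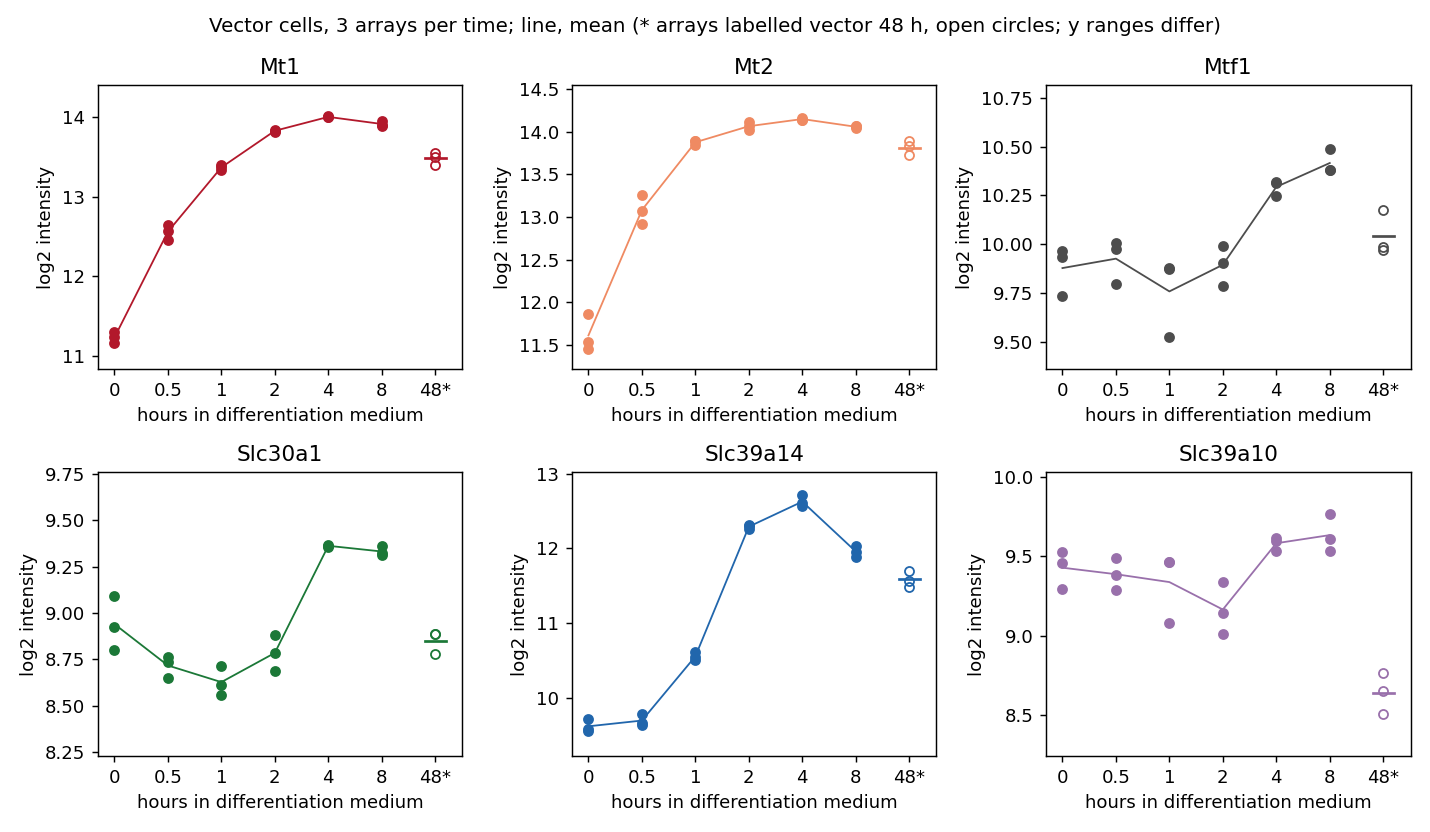
Log2 intensity (vertical axes, ranges differ between panels) of the 6 genes against hours in differentiation medium in vector cells. Points are single arrays, 3 per time, lines join the means, and open circles with a bar are the arrays labelled vector 48 h; Mt1 and Mt2 are already up at 0.5 h, Slc39a14 climbs between 0.5 and 4 h, and Mtf1 and Slc30a1 step up at 4 h.

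Counted together, 2 of the 6 members were higher at 0.5 h than at 0 h and none was lower, where 0.777% of all genes were called higher and 0.502% lower. At an unadjusted p under 0.05 limma put 1 member lower at 0.5 h, Slc30a1 (-0.22), and 1 at 2 h, Slc39a10. At 1 h 3 members were higher and 1 lower, beside 2.78% and 4.29% of all genes, and at 2 h 3 were higher and none lower, beside 10.9% and 17.5%. At 4 h 5 were higher and none lower, beside 17.3% and 22.7% of all genes, and at 8 h likewise, beside 24.2% and 21.9%. The 2 h count became 5 without replicate 3 of vector 0 h, where Slc30a1 (-0.23) and Slc39a10 (-0.33) were also called. The members' median log2 difference came to 0.06 at 0.5 h, to 1.23 at 2 h and to 1.48 at 4 h, beside 0.0098, 0.0024 and 0.025 over all genes. Between successive times 3 members were higher at 1 h than at 0.5 h, where 1.84% of all genes were called higher and 1.77% lower. From 1 h to 2 h 2 were higher (9.47% of all genes higher, 11.3% lower), and from 2 h to 4 h 5 were higher (13.7% higher, 14.2% lower). No member was lower in these steps, also at an unadjusted p under 0.05. Of all genes called at 4 h, 43.3% were higher than at 0 h, and 61.2% after each array was centred on its median. At 1, 2 and 8 h those shares were 39.3%, 38.4% and 52.5% as deposited and 56.0%, 59.0% and 64.8% after centring. Fibroblast markers also moved in these hours: 7 of 9 were lower at 8 h, where their median log2 level was 12.46, against 13.18 at 0 h, and 5 of 9 were lower at 4 h. Of 8 adipocyte markers 1 was lower at 1 h, 3 at 2 h, 5 at 4 h and 7 at 8 h, with a median log2 difference of -0.24 at 4 h and -0.44 at 8 h, and none was higher at these times. No marker of either list was called at 0.5 h. The part of these markers in the members' changes was not tested.

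**Figure D2:**
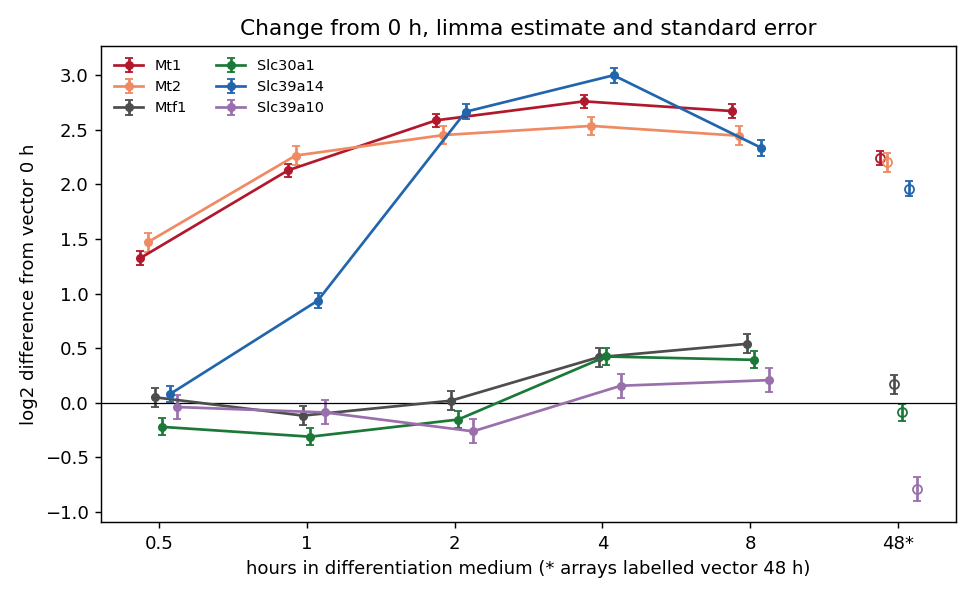
Log2 difference from vector 0 h (vertical axis) for the 6 genes at each later time (horizontal axis, hours), as the limma estimate with its standard error. Mt1, Mt2 and Slc39a14 lie 2.3 to 3.0 above 0 h at 4 and 8 h while Mtf1, Slc30a1 and Slc39a10 stay within 0.54, and the open points are the arrays labelled vector 48 h.

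In the arrays labelled vector 48 h, Mt1, Mt2 and Slc39a14 were still far above 0 h and Slc39a10 was below it. Mt1 had log2 levels of 13.39, 13.49 and 13.55, Mt2 of 13.73, 13.89 and 13.83, and Slc39a14 of 11.70, 11.49 and 11.57. All 9 values lay above the 0 h arrays of the same gene. Above 0 h they stood by 2.24 in log2 units for Mt1, 2.20 for Mt2 and 1.96 for Slc39a14, with limma adjusted p of 2.04e-20, 4.01e-17 and 7.07e-18. With the 48 h labels exchanged these were 1.91, 2.10 and 1.82.

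Slc39a10 had 8.65, 8.51 and 8.76 in the arrays labelled vector 48 h, all below the 0 h arrays. It fell by 0.79 in log2 units (limma adjusted p = 1.51e-06), and with the labels exchanged the difference was -0.26 (limma adjusted p = 0.0589). Mtf1 had 10.17, 9.97 and 9.99 at 48 h as labelled, just above the 0 h arrays, and Slc30a1 had 8.89, 8.78 and 8.89, which overlapped them. Their differences from 0 h, 0.17 and -0.09, were not past the test as labelled (limma adjusted p = 0.150 and 0.437). Mtf1 passed it after centring (0.23, limma adjusted p = 0.0496) and after quantile normalization (0.16, limma adjusted p = 0.0286). With the labels exchanged they were 0.46 and 0.42 (limma adjusted p = 8.20e-05 and 7.88e-05). As labelled, 3 of 6 members were higher and 1 lower at 48 h than at 0 h, where 18.1% of all genes were called higher and 18.7% lower. In the same comparison 8 of 9 fibroblast markers were lower as labelled, with a median log2 difference of -1.04. Of 8 adipocyte markers 3 were higher and 2 lower as labelled, with a median of 0.085. The adipocyte result depends on the labels. The median log2 level of these markers was 10.53 in the arrays labelled vector 48 h and 12.05 in those labelled ISL1 48 h, against 10.96 at vector 0 h. The part of both marker lists in the members' changes was not tested.

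Against 8 h, all 6 members were lower in the arrays labelled vector 48 h, where 18.9% of all genes were called lower and 17.8% higher. The log2 differences were -0.43 for Mt1, -0.24 for Mt2, -0.37 for Mtf1, -0.48 for Slc30a1, -0.37 for Slc39a14 and -0.99 for Slc39a10. The fall of Mt2 (limma adjusted p = 0.0269) did not pass when replicate 2 or 3 of vector 8 h, or replicate 1 or 3 of vector 48 h, was left out, with an adjusted p of up to 0.123. With the 48 h labels exchanged 4 members were lower, while Mtf1 (-0.08, limma adjusted p = 0.598) and Slc30a1 (0.03, limma adjusted p = 0.868) were not past the test. Against 8 h, 6 of 9 fibroblast markers were lower and 1 higher as labelled, and 5 of 8 adipocyte markers were higher and 1 lower.

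Dexamethasone was part of the medium, so 8 genes known to be induced by glucocorticoids were set beside Mt1 and Mt2. They are Per1 of the circadian clock, Fkbp5, a co-chaperone of the glucocorticoid receptor, Tsc22d3 (GILZ), the kinase Sgk1, the factors Klf9 and Zbtb16, glutamine synthetase Glul and the phosphatase Dusp1. Of the 8, 6 were higher than at 0 h at 0.5 h, 7 at 1 h, 8 at 2 h, 8 at 4 h and 7 at 8 h, and none was lower at these times. Of all genes 0.777% were higher at 0.5 h and 24.2% at 8 h. Their median log2 difference was 0.51 at 0.5 h and 2.11 at 4 h. At 0.5 h Dusp1 had risen by 3.22, Per1 by 1.15 and Sgk1 by 1.05, while Fkbp5 (-0.01) and Zbtb16 (0.08) were not past the test, with a limma adjusted p of 0.999 for both.

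The genes differed in when they were highest. Per1, Sgk1 and Klf9 had their largest log2 difference at 1 h (1.96, 1.54 and 1.05), and Dusp1 at 2 h (3.49). Fkbp5 (3.79), Glul (3.23) and Zbtb16 (2.54) had it at 4 h and Tsc22d3 (1.99) at 8 h. At 0.5 h Mt1 and Mt2 had covered 48.0% and 57.9% of their largest change, against 58.7% for Per1, 68.3% for Sgk1, 92.1% for Dusp1, 37.1% for Klf9, 24.5% for Tsc22d3 and 16.2% for Glul. By 8 h Sgk1 and Klf9 had come back to 11.7% and 18.9% of their peak, whereas Mt1 and Mt2 kept 96.8% and 96.4%. The early shares of Mt1 and Mt2 lay between those of Klf9 and Per1. Their late shares lay between those of Zbtb16 and Glul, which kept 92.2% and 98.3%. Over the 8 genes the shares ran from -0.16% (Fkbp5) to 92.1% (Dusp1) at 0.5 h. At 8 h they ran from 11.7% (Sgk1) to 100% (Tsc22d3). With ranges this wide, a place between some pair of these genes says little. Insulin, IBMX, dexamethasone and biotin were given together in medium with serum, and no group had a change of medium alone. The share of each agent, of the serum and of the medium change cannot be told apart.

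**Figure D3:**
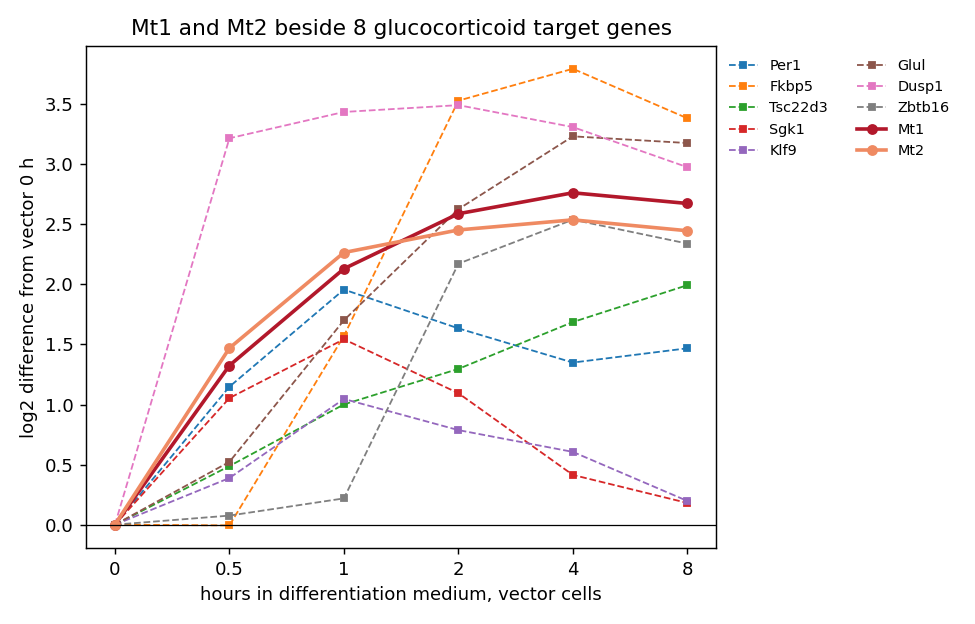
Log2 difference from vector 0 h (vertical axis) against hours in medium for Mt1 and Mt2 (thick lines) and 8 glucocorticoid target genes (dashed), as limma estimates. Per1, Sgk1 and Klf9 turn down after 1 h, while Mt1 and Mt2 stay near their 4 h value at 8 h.

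Of 6 genes reported to depend on Mtf1 in the mouse, 3 were higher and 1 lower at 2 h than at 0 h, where 10.9% of all genes were called higher and 17.5% lower. Gclc, the catalytic subunit of the enzyme that starts glutathione synthesis, rose by 3.08 ± 0.074 at 2 h (log2, SE, limma adjusted p = 3.62e-21). The stress gene Ndrg1 rose by 0.55 and the LIM protein gene Csrp1 by 0.35 at 2 h. Slc40a1, ferroportin, the exporter of iron, fell by 1.67 at 2 h and fell by 3.27 at 8 h (limma adjusted p = 4.88e-19). Selenow, a small selenoprotein, differed by 0.20 at 2 h and -0.03 at 8 h, neither past the test. Pgf, placental growth factor, was 0.23 higher at 8 h (limma adjusted p = 0.0354), but its 8 h arrays overlapped those of 0 h. The group means of Pgf were low, between 6.64 and 6.87 in log2 units over the 9 groups. Csrp1 fell by 0.50 at 8 h.

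Around the metallothionein pair on chromosome 8 the order of the measured protein-coding genes is Bbs2, Mt4, Mt3, Mt2, Mt1, Nup93, Slc12a3 and Herpud1. Mt3, a metallothionein best known from brain, had group means between 9.11 and 9.29 over the 9 groups and no difference from 0 h past the test. At 0.5 h and 1 h limma called none of the 6 neighbours, and 0 had an unadjusted p under 0.05. Over all genes 0.777% were called higher and 0.502% lower at 0.5 h, and 2.78% and 4.29% at 1 h. At 8 h Mt4, the form known from squamous epithelium, rose by 0.65 and the nuclear pore gene Nup93 by 0.69, and Slc12a3, the thiazide-sensitive cotransporter gene, by 0.31 (limma adjusted p = 4.86e-06, 5.34e-09 and 0.0265). Bbs2, of the ciliary BBSome, fell by 1.24 and Herpud1, of the endoplasmic reticulum stress response, by 0.92 at 8 h.

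Of 38 other zinc and copper genes, 37 were measured, and limma called none at 0.5 h or 1 h. Few of all genes were called then: 0.777% higher and 0.502% lower at 0.5 h, and 2.78% and 4.29% at 1 h. At an unadjusted p under 0.05 limma put 2 higher and 1 lower at 0.5 h and 1 higher and 3 lower at 1 h. At 2 h 6 were higher and 7 lower than at 0 h, at 4 h 10 and 5, and at 8 h 16 and 6. Over all genes 10.9% were higher and 17.5% lower at 2 h, 17.3% and 22.7% at 4 h, and 24.2% and 21.9% at 8 h, so the counts at 2 h were close to those shares. Their median log2 difference at 8 h was 0.15, beside 0.07 over all genes. The copper transporter gene Slc31a2 fell by 1.86 at 4 h (limma adjusted p = 1.09e-16), the largest change in the list. At 8 h the zinc importer Slc39a6 rose by 0.96, Sco1, needed to load copper into cytochrome oxidase, by 0.91, the copper importer Slc31a1 by 0.77 and the copper chaperone Atox1 by 0.75. The metalloreductase gene Steap3 fell by 0.92 at 8 h. Beside these, the log2 changes of Mt1, Mt2 and Slc39a14 at 4 h, between 2.54 and 3.00, were larger in size than any of the list up to 8 h.

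**Figure D4:**
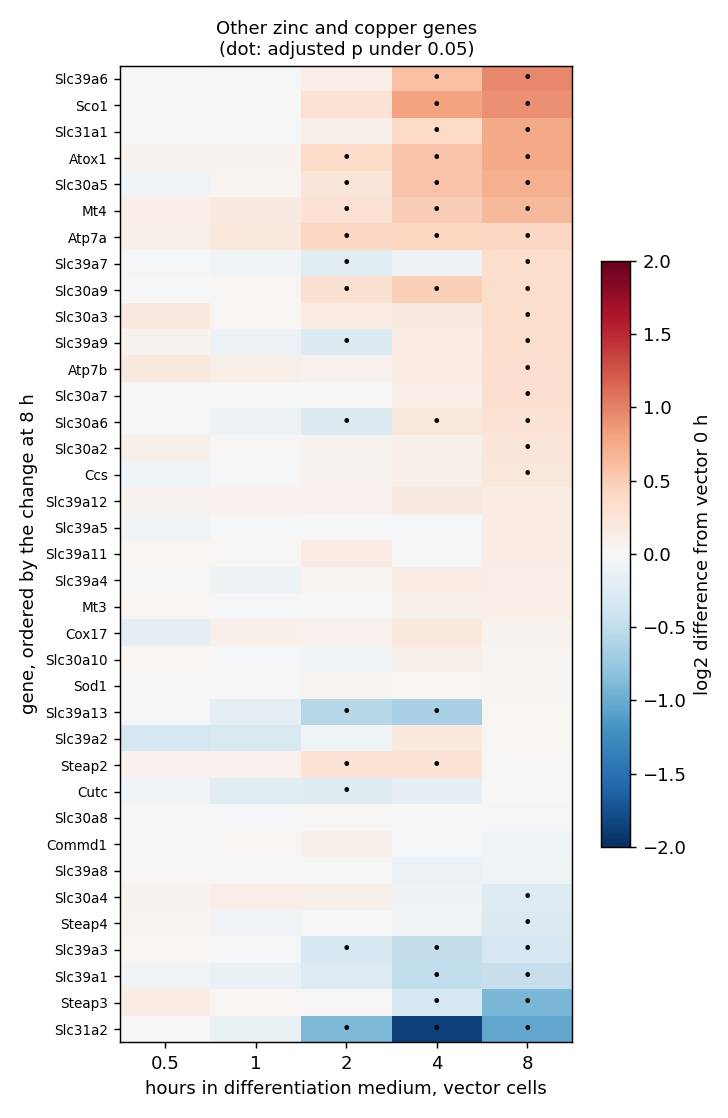
Log2 difference from vector 0 h (colour) of 37 other zinc and copper genes (rows, ordered by the value at 8 h) at 0.5 to 8 h (columns), with a dot where the limma adjusted p is under 0.05. No dot appears at 0.5 or 1 h, and Slc31a2 at 4 h, at -1.86, has the strongest colour.

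At 0 h, before the medium was changed, ISL1 cells had more Mt1 and Mt2 and less Slc30a1 and Slc39a14 transcript than vector cells. Mt1 had log2 levels of 12.24, 12.24 and 12.28 in ISL1 cells, against 11.30, 11.24 and 11.16 in vector cells. Mt2 had 13.01, 13.13 and 13.08 in ISL1 cells, against 11.53, 11.45 and 11.86 in vector cells. Every ISL1 array was above every vector array for both genes. The log2 difference was 1.02 ± 0.061 for Mt1, which is 2.03-fold, and 1.46 ± 0.086 for Mt2, which is 2.75-fold (SE, limma adjusted p = 1.01e-12 and 7.01e-13).

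Slc30a1 had 8.33, 8.35 and 8.45 in ISL1 cells at 0 h, against 9.09, 8.93 and 8.80 in vector cells. Slc39a14 had 9.29, 9.16 and 9.07 in ISL1 cells, against 9.73, 9.56 and 9.58 in vector cells. All ISL1 arrays were lower than all vector arrays for both transporters. The log2 differences were -0.56 for Slc30a1 and -0.45 for Slc39a14, which is 1.48-fold and 1.37-fold lower (limma adjusted p = 2.96e-06 and 1.53e-05). Mtf1 had 9.71, 9.76 and 9.76 in ISL1 cells, against 9.96, 9.94 and 9.73 in vector cells, and these arrays overlapped. The Mtf1 difference was -0.13 (limma adjusted p = 0.334), and -0.24 after quantile normalization (limma adjusted p = 0.00250). Slc39a10 had 9.77, 9.69 and 9.64 in ISL1 cells, above all vector arrays, and its difference of 0.27 was not past the test (limma adjusted p = 0.0761).

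Of the 6 members 2 were thus higher and 2 lower in ISL1 cells at 0 h, where 15.3% of all genes were called higher and 10.4% lower. The difference of Mt2 minus that of Mt1 was 0.44 (0.35 to 0.60 with 1 array left out), and Mt2 minus Mt1 lay between 0.77 and 0.88 in ISL1 arrays and between 0.21 and 0.70 in vector arrays (exact permutation p = 0.1, two-sided, the smallest possible). Of the genes reported to depend on Mtf1, Gclc was 0.66 and Csrp1 0.18 higher in ISL1 cells, and Ndrg1 was 1.59 and Slc40a1 1.74 lower on the log2 scale. Among the neighbours on chromosome 8, Nup93 was 0.98 and Herpud1 0.31 higher in ISL1 cells. Of the glucocorticoid targets 2 were higher and 5 lower in ISL1 cells, among them Glul, which was 0.83 lower, and Dusp1, which was 0.54 higher. Among the other zinc and copper genes 8 were higher and 5 lower, and Slc31a2 (-0.92), the metalloreductase gene Steap4 (-0.80) and Steap3 (-0.51) differed most. Adipocyte markers differed too: 8 of 8 measured were lower in ISL1 cells, with a median log2 level of 8.03 (range 5.72 to 12.35), against 10.96 (9.12 to 13.18) in vector cells. Fibroblast markers had a median of 12.67 in ISL1 cells, against 13.18 in vector cells, and 6 of 9 were lower. The part of these marker differences in the members' differences was not tested.

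At 48 h the metallothioneins stood close together in the arrays of both labels. Mt1 had log2 levels of 13.07, 13.12 and 13.25 in arrays labelled ISL1, against 13.39, 13.49 and 13.55 in those labelled vector. The arrays did not overlap, and the difference was -0.33 ± 0.061 as labelled (SE, limma adjusted p = 0.000118). Mt2 had 13.60, 13.76 and 13.78 in arrays labelled ISL1, against 13.73, 13.89 and 13.83 in those labelled vector. These overlapped, with a difference of -0.10 ± 0.086 (SE, limma adjusted p = 0.460).

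Slc30a1, Slc39a10 and Mtf1 differed in the other direction. Slc30a1 had 9.50, 9.17 and 9.41 in arrays labelled ISL1, against 8.89, 8.78 and 8.89 in those labelled vector. Slc39a10 had 9.38, 8.94 and 9.17 in arrays labelled ISL1, against 8.65, 8.51 and 8.76 in those labelled vector. Mtf1 had 10.40, 10.29 and 10.33 in arrays labelled ISL1, against 10.17, 9.97 and 9.99 in those labelled vector. For all 3 genes the arrays labelled ISL1 were the higher ones with no overlap, which was not counted over all genes.

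As labelled, the log2 differences were 0.51 for Slc30a1, 0.53 for Slc39a10 and 0.29 for Mtf1 (limma adjusted p = 1.14e-05, 0.000479 and 0.0108). The call of Mtf1 was lost without replicate 2 of vector 48 h (0.26, limma adjusted p = 0.0549). Slc39a14 had 11.50, 11.42 and 11.41 in arrays labelled ISL1, against 11.70, 11.49 and 11.57 in those labelled vector, and its difference of -0.15 was not past the test (limma adjusted p = 0.144). As labelled, 3 members were higher and 1 lower, where 14.0% of all genes were called higher and 13.8% lower. With the labels exchanged every one of these signs turns. Adipocyte markers were higher in 8 of 8 in the arrays labelled ISL1, with a median log2 level of 12.05 (range 10.47 to 13.51), against 10.53 (7.23 to 13.23) in those labelled vector. Their part in the members' differences was not tested. Among the other zinc and copper genes 6 were higher and 7 lower as labelled, and Steap2 (-0.89), the zinc importer Slc39a4 (0.55) and its relative Slc39a13 (-0.50) differed most.

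Between the times, the arrays labelled ISL1 48 h had more of 5 members and less of Slc39a10 than ISL1 cells at 0 h, where 20.9% of all genes were called higher and 22.2% lower. The log2 differences were 0.89 for Mt1, 0.64 for Mt2, 0.59 for Mtf1, 0.98 for Slc30a1, 2.27 for Slc39a14 and -0.53 for Slc39a10. For each gene the arrays of the 2 times did not overlap, and how many of all genes share this was not counted. With the labels exchanged the directions were the same, at 1.22, 0.74, 0.30, 0.47, 2.41 and -1.06. As labelled, 8 of 8 adipocyte markers were higher and 7 of 9 fibroblast markers lower in this comparison.

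The difference between constructs was itself compared between 48 h and 0 h. It was 1.35 lower at 48 h for Mt1 and 1.56 lower for Mt2, that is -1.35 ± 0.086 and -1.56 ± 0.121 on the log2 scale (SE, limma adjusted p = 2.11e-12 and 9.68e-11). With the labels exchanged it was -0.69 for Mt1 and -1.36 for Mt2, both past the test. For Slc30a1 it was 1.07 as labelled and 0.05 exchanged, and for Mtf1 0.42 as labelled and -0.16 exchanged, neither past the test when exchanged (limma adjusted p = 0.839 and 0.437). For Slc39a14 it was 0.31 (limma adjusted p = 0.0213), a call lost without replicate 1 of vector 0 h, replicate 2 of vector 48 h, replicate 3 of ISL1 0 h or replicate 1 of ISL1 48 h, with adjusted p of up to 0.0755. It was also lost after centring (limma adjusted p = 0.0536) or when only the compared arrays were fitted (limma adjusted p = 0.0546). For Slc39a10 it was 0.26 as labelled (limma adjusted p = 0.258) and -0.80 exchanged (limma adjusted p = 0.000255). As labelled 3 members were higher and 2 lower, where 12.7% of all genes were called higher and 16.3% lower. The same term as labelled was higher for 8 of 8 adipocyte markers, and for 7 of 9 fibroblast markers with 1 lower.

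**Figure D5:**
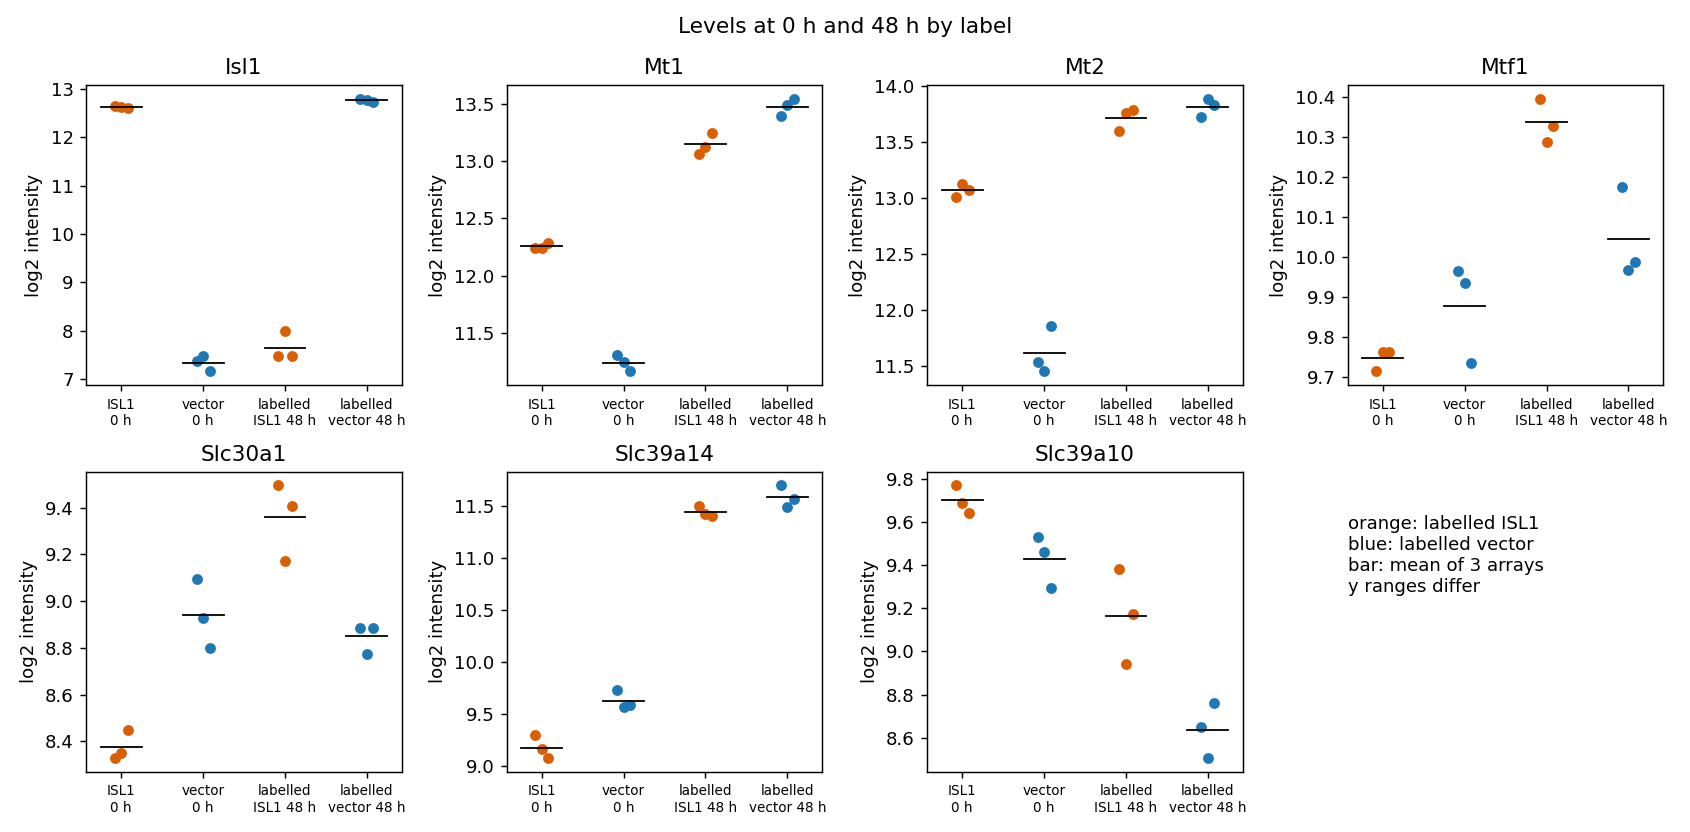
Log2 intensity (vertical axes, ranges differ between panels) of Isl1 and the 6 genes in arrays labelled ISL1 (orange) and vector (blue) at 0 h and 48 h. Points are single arrays and bars are means of 3, and Isl1 is near 12.6 in ISL1 cells at 0 h but near 12.8 in the arrays labelled vector at 48 h.

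Over all 9 groups, the order of the levels separated the genes. Mt1 was highest at vector 4 h, followed by vector 8 h and 2 h, and neighbours in this top trio did not differ past the test (limma adjusted p = 0.351 and 0.303). It was lowest at vector 0 h, then ISL1 0 h and then vector 0.5 h, and no arrays of these groups overlapped. Mt2 had the same top trio, and its level in ISL1 cells at 0 h did not differ from that of vector cells at 0.5 h (0.01, limma adjusted p = 0.941). Slc39a14 was highest at vector 4 h, then 2 h, 8 h and 48 h as labelled, with no overlap between these groups, and its lowest group was ISL1 0 h. Mtf1 and Slc30a1 were both highest at vector 4 h and 8 h and in the arrays labelled ISL1 48 h, a trio whose neighbours did not differ past the test. Slc30a1 was lowest in ISL1 cells at 0 h, 0.25 below vector 1 h with no overlap (limma adjusted p = 0.0147), and for Mtf1 the same 2 groups came last, 0.012 apart and overlapping (limma adjusted p = 0.950). Slc39a10 was lowest in the arrays labelled vector 48 h, 0.53 below the next group, with no overlap.

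As a description of the same 9 group means, without a test, Pearson's r was 0.975 between Mt1 and Mt2, 0.941 between Mtf1 and Slc30a1, 0.874 between Mt1 and Slc39a14 and -0.186 between Mt1 and Slc39a10. The points share their arrays. Among the 4195 genes whose group means spanned at least 1 log2 unit, those most like Mt1 were Mt2, Klf5 (r = 0.947) and Tob2 (0.935), and those most like Mt2 were Mt1, Klf5 (0.906) and Myc (0.889). Slc39a14 was most like Pde4d (0.987), Sphk1 (0.983) and Pvr (0.979). Mtf1 was most like Surf2, Tarbp1 (both 0.980) and Ankrd61 (0.975), Slc30a1 most like Lpgat1 (0.953), Max (0.952) and Dbt (0.945), and Slc39a10 most like Abcb1b (0.885), Tiam1 (0.884) and Lrrc8b (0.883).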

How the data were processed

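Each array gave 1 deposited log2 value per probe set, made by the authors with RMA, which corrects background, quantile-normalizes and summarises probes, per the submitters' processing notes. The log base is not stated and was taken from the range of the values. RMA's version, a genome build and scan dates were not stated in the sources at hand. Values were used as deposited, with no filter on low values. Detection calls were not used, and 3 arrays per group limit the precision. Of 28853 probe sets 21789 had 1 gene symbol in the platform's table and were used, 1621 had several and 5443 had none. The probe set with the highest mean was kept for each of 999 genes with more than 1, which left 19938 genes. Replicate arrays correlated at 0.993 to 0.999, and no arrays were identical. The series text calls the replicates biological triplicates.

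The linear model, run in limma 3.58.1 (R 4.3.3) with empirical Bayes moderation, had a mean for each of the 9 groups. In each of the 15 two-sided comparisons the Benjamini-Hochberg adjustment covered all 19938 genes. The members and all gene lists were chosen with earlier results of these data known. Genes named were the members and every gene of the lists of glucocorticoid targets and of genes reported to depend on Mtf1. Also named were the 3 measured protein-coding genes on each side of Mt1 and Mt2 and the 3 genes most correlated with each member. From the zinc and copper list, the 6 past the test with the largest change up to 8 h were named. So were the 3 past the test with the largest change in each comparison of constructs. Alternatives were other normalizations, probe set rules, a filter on low values, other array sets, a variance trend, a replicate block, exchanged 48 h labels and each array left out in turn.

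In data simulated with the same groups, the fit recovered 91.0% of 67 genes changed 1.5-fold, 98.5% of 67 changed 2-fold and 100% of 66 changed 4-fold between 8 h and 0 h over 19938 genes. In the real data 9187 genes were called between these times, so the recovered shares hold for the simulated setting only. Same-numbered arrays deviated together (every correlation over 0.1) in 4 of 36 pairs of groups, so the replicate numbers were not taken as pairs. Promoter windows and gene positions came from RefSeq (GRCm38.p6).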

Additional observations from a re-analysis of the deposited data

Results flagged for a closer look

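As labelled, the interaction term of the limma fit with Benjamini-Hochberg adjustment was called for 5 of the 6 members. Of all genes 12.7% were called higher and 16.3% lower in this term. On the log2 scale and as labelled, the construct difference moved by -1.35 for Mt1 and by -1.56 for Mt2. For Mtf1 it moved by 0.42, for Slc30a1 by 1.07 and for Slc39a14 by 0.31. The Slc39a14 call was lost in 4 of 12 fits with 1 array left out, after centring, and when only the compared arrays were fitted. With the 48 h labels exchanged the same term was -0.69 for Mt1, -1.36 for Mt2, -0.16 for Mtf1, 0.05 for Slc30a1 and 0.60 for Slc39a14. The sign held for Mt1, Mt2, Slc30a1 and Slc39a14 under both readings of the labels, and Slc30a1 and Mtf1 were past the test under 1 of them. Groups of 3 arrays were not searched for outlying arrays.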

How the results depend on the processing

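The 90 member differences were recomputed under alternatives, which gave 1386 values. Of these 1326 kept their direction and their side of the threshold, 26 kept the direction and were no longer past the test, 14 became past it, and 20 changed sign. Of the 20, 8 were past the test in either fit, all on exchanging the 48 h labels, and 12 in neither. Exchanged, vector 48 h against 0 h was 0.42 for Slc30a1, and against 8 h it was 0.028. Exchanged, ISL1 48 h against vector 48 h was 0.33 for Mt1, -0.29 for Mtf1, -0.51 for Slc30a1, -0.53 for Slc39a10, 0.10 for Mt2 and 0.15 for Slc39a14 (the last pair past the test in neither fit), and the change of the construct difference was -0.16 for Mtf1 and -0.80 for Slc39a10. Centring put Slc39a10 at 1 h against 0.5 h at 0.0013. With 1 array left out, against 0 h Mtf1 lay between -0.024 and 0.11 at 0.5 h, and at 2 h between -0.055 and 0.071. Slc39a10 lay between -0.11 and 0.0099 at 0.5 h against 0 h, and gave -0.16 to 0.038 at 1 h against 0 h, -0.11 to 0.079 at 1 h against 0.5 h, and -0.014 to 0.10 at 8 h against 4 h. Members called at 2 h against 1 h numbered 4 after quantile normalization and 2 as deposited, and the cause was not tested. With only the compared arrays fitted, which leaves fewer arrays for the variance, all genes called numbered 912 at 1 h against 0 h (1410 in the fit of all arrays) and 398 at 1 h against 0.5 h (718). Leaving out 1 array gave 3 to 5 members called at 2 h against 0 h. The replicate block changed no member call, and with it the difference of Slc30a1 at 1 h against 0 h stayed at -0.31 (limma adjusted p = 0.0157) and 1396 genes were called there. Centring moved every gene by at most 0.092 in any comparison, and raised the share of higher calls at 48 h against 0 h to 61.4%, beside 49.2% as deposited, and at 1 h against 0.5 h to 70.4%, beside 51.0%. Signal over background was not tested, which limits what can be said of the lower log2 levels.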
